A study of Gallus gallus with 4 samples.

Results

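The genes described here encode the proteins of the cytosolic ribosome in retinal cells of the chicken (Gallus gallus). They were chosen by symbol alone, as genes whose symbol starts RPL or RPS followed by a number, the P proteins RPLP0, RPLP1 and RPLP2, and RPSA, without the RPS6K kinases. This gave 76 of 18292 genes with a symbol. They comprised 41 genes of the large subunit, 29 of the small subunit, 5 that carry the symbol of a paralogue (RPL3L, RPL7L1, RPL10L, RPL22L1 and RPS27L) and RPS19BP1, which encodes a protein that binds RPS19 and is no ribosomal protein. The 41 and 29 are called structural genes below.

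Ribosomal proteins bind ribosomal RNA and form, with it, the particles that read mRNA and join amino acids. Their mRNAs are among the most abundant in growing cells and mostly start with a run of pyrimidines, the TOP sequence, through which the kinase mTOR controls their translation. Cells lacking a copy of a ribosomal protein gene often grow poorly, and in mouse a mutation of Rpl24 changes the retina.

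PolyA RNA was sequenced from retinal explants of embryonic day 5 electroporated with 2 plasmids and cultured for about 20 hours. In ThrbCRM1-GFP a regulatory element of THRB, which encodes a thyroid hormone receptor, drives GFP, and UbiqC-Tdt marks electroporated cells with a red protein. All cells of both groups thus carried UbiqC-Tdt and came from explants that received both plasmids. Sorting gave GFP-positive, TdTomato-positive cells (ThrbCRM1) and cells positive for TdTomato alone (UbiqC), with 2 libraries, A and B, in each group. A cell that received little of the ThrbCRM1-GFP plasmid would fall in UbiqC whatever its identity. The sources used here do not state how many explants were pooled.

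Library totals ran from 15673010 to 31659766 estimated counts, with ThrbCRM1 A and UbiqC B the deeper ones. THRB followed the sort, at 309 to 419 TPM (a level corrected for transcript length and library size) in ThrbCRM1 against 6.81 to 7.94 TPM in UbiqC. The summed level of 7 progenitor genes lay between 1429 and 1602 TPM in ThrbCRM1 and between 1809 and 2048 TPM in UbiqC. Genes of other tissues were low. The 4 mesenchyme and vessel genes found summed to between 8.08 and 10.1 TPM in the 4 libraries. The 5 pigment epithelium genes summed to between 9.53 and 11.3 TPM in ThrbCRM1 and between 15.6 and 16.7 TPM in UbiqC. The 4 lens genes found summed to between 36.8 and 52.9 TPM in ThrbCRM1 against 11.6 to 14.8 TPM in UbiqC, most of it CRYBA4. Of 6 blood markers PTPRC alone was analysed, at 1.87 to 4.72 TPM. The part of these markers in the results below was not tested.

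Ribosomal protein mRNAs made up a large part of every library. The 76 genes summed to 183935 (A) and 181452 (B) TPM in the ThrbCRM1 libraries and to 204595 (A) and 195202 (B) TPM in the UbiqC libraries. In counts, which weigh long transcripts more, they held 5.33% and 5.36% of the gene counts of ThrbCRM1 A and B and 6.39% and 5.92% of those of UbiqC A and B. Both ThrbCRM1 libraries were below both UbiqC libraries, and the UbiqC libraries differed from each other by more than the ThrbCRM1 libraries did. The log2 ratio of the group means of this share was -0.20 in counts and -0.10 for the share of gene TPM, and -0.15 in counts without UbiqC A. As in any bulk sample, fewer cells of a type and less RNA per cell cannot be told apart, and a share says nothing of the amount of RNA in a cell.

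Most structural genes stood at a like level. Their median was 2605 (A) and 2585 (B) TPM in ThrbCRM1, 2884 (A) and 2759 (B) TPM in UbiqC, against a median of between 19.0 and 19.9 TPM over all genes with at least 1 TPM. Between 64 and 67 of the 70 structural genes lay between 1000 and 5000 TPM in a library. Of the 100 genes with the highest TPM in a library, 61 were members in each ThrbCRM1 library, 64 in UbiqC A and 63 in UbiqC B. The order of the structural genes was much the same in both groups (Spearman's rho 0.96 between the group means of log2 TPM over 70 genes, which share libraries and annotation).

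**Figure D1:**
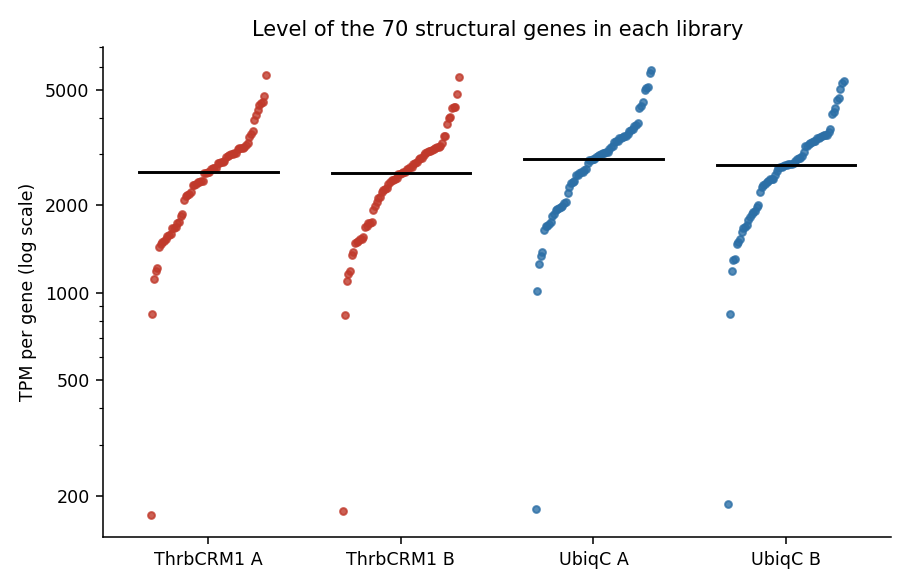
TPM of each of the 70 structural ribosomal protein genes (points, sorted within a library, log axis) in the 4 libraries, ThrbCRM1 in red and UbiqC in blue, with black lines at the medians. The medians lie between 2585 and 2884 TPM, and the single low point in each library is RPL35A, estimated at 171 to 187 TPM from an annotated transcript that was not checked.

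The highest level belonged to RPS6, the small subunit protein that S6 kinases phosphorylate. RPS6 levels were 5614 (A) and 5534 (B) TPM in ThrbCRM1, against 5871 (A) and 5377 (B) TPM in UbiqC, so the groups overlapped. RPS3A, a small subunit protein near the mRNA exit, stood at 4800 ± 76.6 TPM (SD, n = 2) in ThrbCRM1 and 5081 ± 62.8 TPM in UbiqC. RPL39 and RPL37A, both small proteins of the large subunit, stood at 4400 ± 61.0 and 4447 ± 132 TPM in ThrbCRM1 and at 4842 ± 344 and 4845 ± 224 TPM in UbiqC. RPS12 ranked 4th in ThrbCRM1 and 2nd in UbiqC, with 4412 ± 132 and 5512 ± 302 TPM. In UbiqC, RPS6 and RPS12 differed by less than the spread between libraries, as did RPL37A and RPL39, and in ThrbCRM1 the same held for RPL37A, RPS12 and RPL39.

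The lowest levels belonged to genes that are mostly not structural. RPL3L, which in mammals replaces RPL3 in heart and skeletal muscle, stood at 0.666 to 1.94 TPM. RPS27L, a paralogue of RPS27 known as a p53 target in human cells, stood at 55.1 to 59.3 TPM, RPS19BP1 at 51.7 to 61.4 TPM, and RPL7L1, a relative of RPL7 tied to ribosome assembly, at 173 to 208 TPM. RPL35A, a large subunit protein, was the lowest structural gene and stood at 174.6 ± 4.37 TPM in ThrbCRM1 and 183.3 ± 5.28 TPM in UbiqC, far below the next structural gene, RPS28, at 838 to 1015 TPM. The annotated transcript of RPL35A and the assignment of reads to it were not checked, so this value is the estimate for that annotation.

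The comparison of ThrbCRM1 with UbiqC cells asks how reporter-marked, fate-restricted cells differ from the remaining electroporated cells. Ribosomal protein mRNAs were slightly lower in ThrbCRM1, and the largest falls were those of 2 small subunit genes, RPS2 and RPSA. All 76 members passed the filter on low counts. Of them 27 fell, 0 rose and 49 did not pass the test (edgeR quasi-likelihood test, adjusted p under 0.05 over 16771 genes), while 20.9% of all genes tested fell and 19.9% rose. At an unadjusted edgeR p under 0.05, 39 were lower and 0 higher, against 25.5% and 23.7% of all genes tested. DESeq2 called 28 lower and 0 higher, against 17.4% and 17.8% of all genes. With limma on log2(TPM + 1) 19 fell and 0 rose, against 20.2% and 22.9% of all genes tested there. The fold change was below 0 for 69 of 76 members and for 50.7% of all genes tested.

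The changes were small and close together. The median log2 fold change of the members, ThrbCRM1 minus UbiqC, was -0.18 (11.5% lower), with quartiles of -0.25 and -0.13, beside a median of -0.01 and quartiles of -0.39 and 0.39 over all genes tested. Their median standard error was 0.07, against 0.145 over all genes tested. In normalised counts scaled to library size (CPM), both ThrbCRM1 libraries lay below both UbiqC libraries for 62 members (81.6%). They lay above them for 2 and overlapped for 12. Of all genes tested, 36.7% lay below and 35.3% above. On the TPM scale 55 members lay below and 6 above, against 32.8% and 39.1% of all genes. The counts by subunit were similar: 15 of 41 large subunit genes and 11 of 29 small subunit genes fell, with medians of -0.18 and -0.19.

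**Figure D2:**
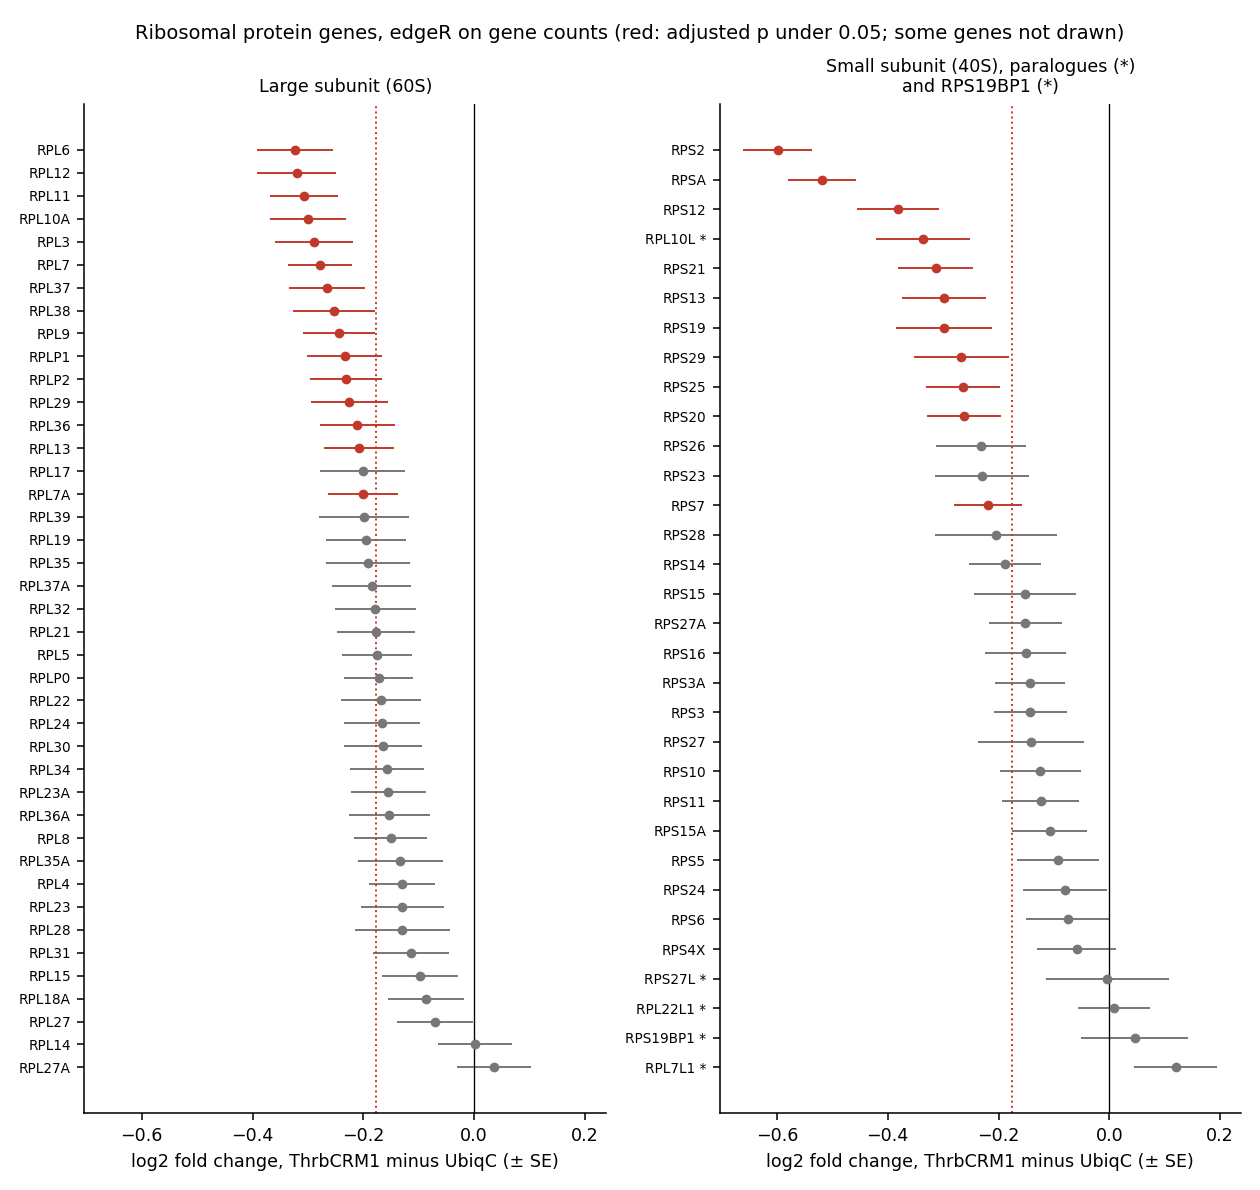
Log2 fold change (ThrbCRM1 minus UbiqC) with its standard error for the genes drawn, large subunit left, small subunit, paralogues and RPS19BP1 right, with red for genes past the edgeR test and a dotted line at the members' median of -0.18. RPS2 and RPSA lie farthest left, at -0.60 and -0.52, and RPL3L, measured at about 1 CPM, and a few other genes are not drawn.

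The count of calls rested on single libraries. With ThrbCRM1 A, ThrbCRM1 B or UbiqC A left out, members were called lower less often than all genes, and without UbiqC B more often. Without ThrbCRM1 A only RPS2 and RPSA were called (11.9% of all genes fell), without ThrbCRM1 B 6 members (13.1%) and without UbiqC A 9 (15.5%), while 38 were called without UbiqC B (18.5%). UbiqC A was the library with the highest ribosomal share: the median member was 0.11 higher there than in UbiqC B on the log2 scale, and 7 of 76 were lower. The median between a ThrbCRM1 and a UbiqC library lay between -0.25 and -0.11 in the 4 pairs, and ThrbCRM1 A differed from ThrbCRM1 B by -0.03. The difference between the groups was thus larger than the spread within ThrbCRM1 and, against UbiqC B, about as large as the spread within UbiqC.

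Length moved with the result. The main transcripts of the members had a median of 612.5 bases, against 2673 bases over all genes tested, and 70 of 76 were at most 1000 bases long. Among the other genes tested, those of up to 1000 bases had a median log2 fold change of -0.11 and those of over 4000 bases a median of 0.12. The 109 other genes of at most 1000 bases with a mean of at least 100 CPM had a median of -0.22, and 47.7% of them fell. This set includes other translation genes, and the median of the members was -0.18. Reads of the class the authors named MT made up 3.37% and 2.97% in ThrbCRM1 A and B and 3.55% and 3.35% in UbiqC A and B, and their unaccounted reads 2.90% and 2.38% against 1.69% and 1.28%. The class the authors named Artifacts made up 8.91% and 5.3% in ThrbCRM1 A and B and 5.04% and 8.05% in UbiqC A and B. What part length or these read classes had in the members' change was not tested.

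RPS2 and RPSA had the largest falls, with -0.38 the next value. RPS2 encodes a protein at the entry of the mRNA channel of the small subunit, and RPSA, also known as the laminin receptor precursor, a protein at the back of its head region. RPS2 had 1006 and 1049 CPM in ThrbCRM1 A and B and 1584 and 1527 CPM in UbiqC A and B. RPSA had 1219 and 1282 CPM in ThrbCRM1 A and B and 1790 and 1793 CPM in UbiqC A and B. In both genes the ThrbCRM1 libraries lay far below the UbiqC libraries, with little spread within a group. RPS2 fell by 0.60 ± 0.06 (SE) on the log2 scale, to 0.661 of its UbiqC level (edgeR adjusted p = 0.000707), and RPSA fell by 0.52 ± 0.06, to 0.698 of it (edgeR adjusted p = 0.00114). Of the 76 members these alone were called in all 14 alternatives run, including each fit without a library. By TPM, RPS2 moved from rank 16 among the members in UbiqC to rank 43 in ThrbCRM1, and RPSA from rank 20 to rank 39.

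The other members with the largest falls lay in both subunits. RPS12, a small subunit protein that in Drosophila takes part in cell competition, had 965 and 955 CPM in ThrbCRM1 A and B and 1319 and 1182 CPM in UbiqC A and B, and fell by 0.38 ± 0.07 (edgeR adjusted p = 0.00822). RPS21, whose Drosophila form binds the RPSA homologue, had 190 and 193 CPM in ThrbCRM1 and 247 and 229.6 CPM in UbiqC, and fell by 0.31 ± 0.07. In both genes the UbiqC libraries differed by more than the ThrbCRM1 libraries, and UbiqC A was the higher. RPL6, of the large subunit, had 772 and 806 CPM in ThrbCRM1 and 1023 and 951 CPM in UbiqC, and fell by 0.32 ± 0.07. RPL12, a protein at the base of the stalk, had 405 and 430.2 CPM in ThrbCRM1 and 539 and 503 CPM in UbiqC, and fell by 0.32 ± 0.07. The groups did not overlap in CPM in any of the 27 members called. The test used these same counts, so this largely follows from the call and adds no support. Of all genes tested, called or not, 36.7% lay below in the same way. In fits with a library left out RPL6 was called in 3 of 4 and RPS12, RPS21 and RPL12 in 2 of 4. The 19 called members not among the 8 with the largest falls had log2 fold changes between -0.31 and -0.20.

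RPL10L carries the symbol of a mammalian testis copy of RPL10, and of the 5 paralogues it alone stood above 1000 TPM. It had 340.1 and 350.5 CPM in ThrbCRM1 A and B and 467 and 405 CPM in UbiqC A and B, and 1293 to 1651 TPM. It fell by 0.34 ± 0.09 (edgeR adjusted p = 0.0223), a call kept in 1 of the 4 fits with a library left out. No gene under the symbol RPL10 was analysed here, so RPL10L may be the chicken RPL10 gene itself, and its place among the paralogues rests on its symbol alone. Reads of near-identical copies cannot be told apart in these estimates.

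**Figure D3:**
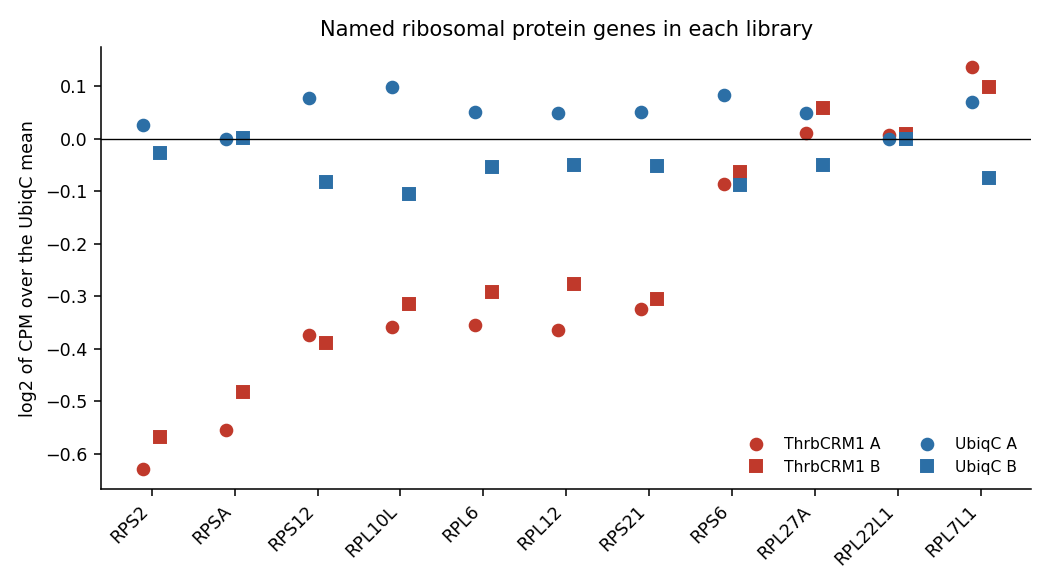
Log2 of CPM over the UbiqC mean for named ribosomal protein genes in each library (circles A, squares B; red ThrbCRM1, blue UbiqC). The genes from RPS2 to RPS21 are among the 8 with the largest falls, RPS6 lies close to 0 with overlapping groups, and the ThrbCRM1 libraries of RPL27A, RPL22L1 and RPL7L1 lie above 0.

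The stalk of the large subunit, formed by RPLP0, RPLP1 and RPLP2, recruits elongation factors. RPLP1 had 575 and 603 CPM in ThrbCRM1 A and B and 714 and 671 CPM in UbiqC A and B, and fell by 0.23 ± 0.07 (edgeR adjusted p = 0.0358). RPLP2 fell by 0.23 ± 0.07 as well (edgeR adjusted p = 0.0322), from 718 ± 32.3 to 612 ± 2.84 CPM (SD, n = 2). RPLP0, to which both bind, had 1204 and 1263 CPM in ThrbCRM1 and 1407 and 1373 CPM in UbiqC, with a log2 fold change of -0.17 that did not pass (edgeR adjusted p = 0.0689). All 3 genes were lower in both ThrbCRM1 libraries, and RPLP1 and RPLP2 each kept their call in 1 of the 4 fits with a library left out.

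RPL5 and RPL11 form, with 5S RNA, the particle that binds MDM2 when ribosome assembly is disturbed. RPL11 had 559 and 563 CPM in ThrbCRM1 A and B and 706 and 683 CPM in UbiqC A and B, and fell by 0.31 ± 0.06 (edgeR adjusted p = 0.00916), a call lost without either ThrbCRM1 library. RPL5 had 1368 and 1426 CPM in ThrbCRM1 and 1615 and 1539 CPM in UbiqC, with a log2 fold change of -0.18 (edgeR adjusted p = 0.0698). Whether RPL5 and RPL11 differ in their change was not tested.

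RPS27A, whose product is made fused to ubiquitin, had 807 and 844 CPM in ThrbCRM1 A and B and 943 and 891 CPM in UbiqC A and B, and did not pass (log2 fold change -0.15, edgeR adjusted p = 0.117). RPS6 itself had 2298 and 2334 CPM in ThrbCRM1 and 2585 and 2296 CPM in UbiqC (log2 fold change -0.08 ± 0.07, edgeR adjusted p = 0.470). RPL24, the gene of the mouse mutation with a retinal defect, named after its value was seen, had a log2 fold change of -0.17 (edgeR adjusted p = 0.104).

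The paralogues other than RPL10L, and RPS19BP1, lay at or above 0, or were close to it. RPL22L1 had 110.0 and 110.2 CPM in ThrbCRM1 A and B and 109.4 and 109.5 CPM in UbiqC A and B, a log2 fold change of 0.01 ± 0.06, while its partner RPL22 stood at 334.5 ± 6.96 and 375.8 ± 23.6 CPM (SD, n = 2), a log2 fold change of -0.17 that did not pass (edgeR adjusted p = 0.114). RPL7L1 had 151 and 147 CPM in ThrbCRM1 and 144 and 130.5 CPM in UbiqC, with a log2 fold change of 0.12 ± 0.08 (edgeR adjusted p = 0.260), while RPL7 fell from 1354 ± 0.209 to 1116 ± 10.6 CPM (-0.28 ± 0.06, edgeR adjusted p = 0.0109). RPS27L had 16.4 and 16.5 CPM in ThrbCRM1 and 16.4 and 16.5 CPM in UbiqC, beside 313.4 ± 3.43 and 346 ± 43.4 CPM of RPS27, whose log2 fold change of -0.14 did not pass (edgeR adjusted p = 0.290). None of these genes passed in the direction of a rise, and whether a paralogue and its partner differ in their change was not tested.

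RPS19BP1 had 28.0 and 26.5 CPM in ThrbCRM1 A and B and 25.3 and 27.4 CPM in UbiqC A and B (log2 fold change 0.05 ± 0.10). RPL3 fell from 1517 ± 20.7 to 1242 ± 84.2 CPM (-0.29 ± 0.07, edgeR adjusted p = 0.0192), while RPL3L was too low to compare, at 0.446 to 1.28 CPM. Of the structural genes, RPL14 and RPL27A, named after their values were seen, had fold changes at or above 0, with log2 values of 0.00 and 0.04, each with a standard error of 0.07. In TPM both were higher in both ThrbCRM1 libraries, as were 39.1% of all genes tested. For example, RPL27A had 3018 and 3021 TPM in ThrbCRM1 against 2875 and 2769 TPM in UbiqC. In CPM the groups of both genes overlapped. The 44 structural genes that did not pass had log2 fold changes between -0.23 and 0.06. In CPM 35 of them were lower in both ThrbCRM1 libraries, as were 36.7% of all genes tested, called or not.

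The authors' deposited table, made from the same 4 libraries, lists 43 of the 76 members with q below 0.05 and lower in ThrbCRM1. It lists 0 higher, against 21.3% of all its genes lower and 18.6% higher. All 27 genes called by edgeR were among the 43 in the authors' deposited table. Both come from the same libraries, so this compares methods.

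RPS24 was described by transcript because its transcripts differed between the groups where its total did not pass the test. RPS24 encodes a small subunit protein whose mRNA is known in mammals to include or skip very small exons near its end depending on the tissue. Its total was alike in the groups, at 940 and 931 CPM in ThrbCRM1 A and B and 1046 and 931 CPM in UbiqC A and B (log2 fold change -0.08, edgeR adjusted p = 0.450). Of its 4 annotated transcripts, of 691, 688, 670 and 614 bases, the 2 longest together held 27.8% and 25.2% of RPS24 TPM in ThrbCRM1 A and B and 6.72% and 7.30% in UbiqC A and B. They differ in length by 3 bases, and the shorter of them is 18 bases longer than the next.

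For the transcript of 691 bases the levels were 508 (A) and 465 (B) TPM in ThrbCRM1, against 166 (A) and 144 (B) TPM in UbiqC. For the transcript of 688 bases they were 402 (A) and 336 (B) TPM in ThrbCRM1, against 66.6 (A) and 90.2 (B) TPM in UbiqC. Both were higher in both ThrbCRM1 libraries. How many of all transcripts lay so was not counted, and by gene 39.1% of all genes tested did in TPM. The other 2 transcripts of RPS24 together were lower in ThrbCRM1, at 2368 and 2378 TPM against 3223 and 2972 TPM. A fit over all 32759 transcripts tested, chosen after these values were seen, gave log2 fold changes of 1.57 ± 0.12 (edgeR adjusted p = 0.0253) and 2.15 ± 0.19 (edgeR adjusted p = 0.0311). Among 102 member transcripts tested these were the only 2 that rose, and 2 fell, while 3.08% of all transcripts rose and 2.93% fell, 6.01% in all. DESeq2 called both as well, with 2 risen and 50 fallen among the member transcripts, against 13.1% and 13% of all transcripts. With any library left out, edgeR called 0 transcripts of any gene (5902 to 7710 had an unadjusted p under 0.05, and DESeq2 called 8556 with all libraries), while the log2 fold changes of these 2 stayed between 1.46 and 2.37. The transcripts share most of their sequence, so the split of reads among them is an estimate of the quantifier whose error was not analysed here.

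**Figure D4:**
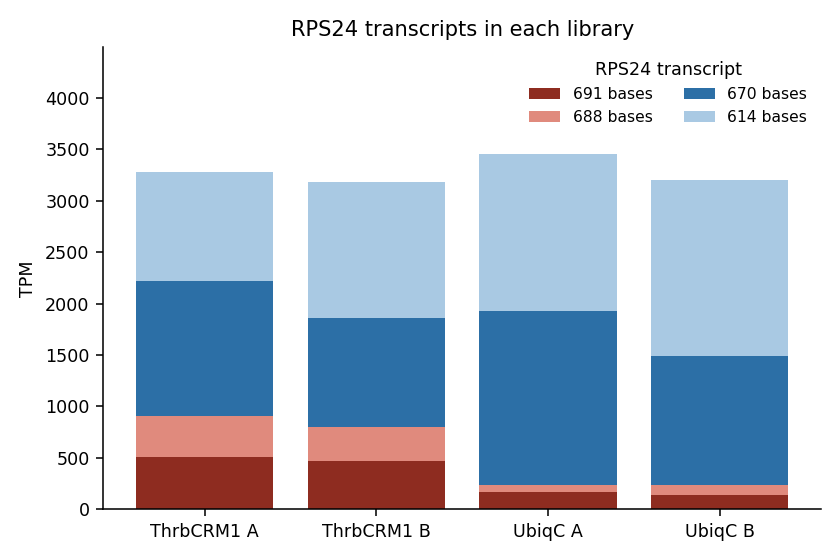
TPM of the 4 annotated RPS24 transcripts, stacked, in each library. The 2 longest (red) sum to 910 and 801 TPM in ThrbCRM1 and to 232 and 234 TPM in UbiqC, while the height of the whole bars differs little.

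Other members differed less in their transcript shares. Of the 76 members 56 had a single transcript in the annotation. Of the 19 others that were expressed, RPL3L being left out, 11 had a transcript with at least 90% of the gene's TPM in every library. Between group means, the largest difference in a transcript's share was 11.9 percentage points in RPS24 and then 3.68 in RPL28, 3.38 in RPL30 and 3.10 in RPL32. The 11.9 points were those of the RPS24 transcript of 614 bases. It held 32.2% and 41.6% in ThrbCRM1 A and B and 44.1% and 53.5% in UbiqC A and B. In RPL28, RPL30 and RPL32 the share differed by more between ThrbCRM1 A and B than between the group means. RPS24 and these genes, chosen with their values known, were not tested for a difference in shares. In RPL15 3 transcripts each held between 26.6% and 38.3% in every library, with no difference between groups above 0.651 points.

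Lists of other translation genes were read against the 20.9% of all genes that fell and the 19.9% that rose. With any library left out fewer of all genes were called, so counts from those fits do not stand beside these shares. Of 70 mitochondrial ribosomal protein genes, which build the separate ribosome of mitochondria, 36 fell and 0 rose (edgeR; 0 higher also at an unadjusted p under 0.05 and with DESeq2), with a median log2 fold change of -0.33. MRPL54 fell from 48.2 ± 1.06 to 27.6 ± 0.267 CPM (SD, n = 2) and MRPS23 from 55.9 ± 1.37 to 34.2 ± 0.315 CPM. Fewer genes of the whole list were called without ThrbCRM1 A, ThrbCRM1 B or UbiqC A. Counted in either direction, their share was below that of all genes with either ThrbCRM1 library left out. It was slightly above that of all genes without UbiqC A. Of 92 ribosome assembly factors 45 fell and 1 rose, with a median of -0.24. EBNA1BP2, a nucleolar factor of large subunit assembly, fell from 78.8 ± 3.96 to 46.2 ± 1.62 CPM, and NOP58, a core protein of the particles that methylate ribosomal RNA, from 199 ± 1.10 to 131 ± 6.75 CPM. NPM1, which encodes nucleophosmin and was named after its value was seen, fell by 0.44 ± 0.06. Fewer assembly factors were called with any library left out. Counted in either direction, a smaller share of them than of all genes was called without ThrbCRM1 A, ThrbCRM1 B or UbiqC A.

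Of 13 genes of RNA polymerase I, which transcribes ribosomal RNA, and its factors, shares near or below those of all genes passed the test: 2 fell, TWISTNB from 19.6 ± 3.98 to 9.96 ± 1.41 CPM and POLR1D from 23.7 ± 1.44 to 15.6 ± 1.39 CPM, both subunits of the enzyme, and 1 rose. POLR1D kept its call in 3 of 4 fits with a library left out. The one that rose was UBTF, an activator of ribosomal RNA transcription, named after its value was seen. UBTF had 224 and 214 CPM in ThrbCRM1 A and B. In UbiqC A and B it had 186 and 187 CPM (log2 fold change 0.24 ± 0.06). UBTF lost its call without any of the 4 libraries. Fewer genes of the list were called with any library left out, as of all genes tested.

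The translation factors were mixed. Of 38 initiation factors 13 fell and 4 rose, with a median of -0.16. DENR, a factor of reinitiation, rose from 78.7 ± 4.64 to 155 ± 0.0626 CPM, and EIF4E3, a cap-binding protein, from 11.5 ± 1.22 to 29.2 ± 1.02 CPM. Fewer initiation factors were called with any library left out. Without ThrbCRM1 A, ThrbCRM1 B or UbiqC A a smaller share of them than of all genes was called. Of 13 elongation and termination factors 5 fell and 1 rose. EIF5A2, a form of the factor that eases peptide bond formation, fell from 972 ± 46.7 to 608 ± 10.1 CPM, and EEF1A2, the form of elongation factor 1 alpha used in neurons and muscle, rose from 16.8 ± 0.210 to 25.9 ± 1.16 CPM. Fewer elongation and termination factors were called with any library left out, as of all genes tested. EEF1A1, the common form and a TOP mRNA, was chosen with its value known. It stood at 8907 ± 500 and 9473 ± 13.6 CPM and did not pass (edgeR adjusted p = 0.294).

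Of 17 other genes known for TOP mRNAs, some of them also among these factors, 5 fell and 0 rose (edgeR; 0 higher at an unadjusted p under 0.05 and with DESeq2), with a median of -0.12. VIM, an intermediate filament gene, fell from 689 ± 19.3 to 456 ± 0.899 CPM, and EIF3E, a subunit of initiation factor 3, from 753 ± 5.05 to 522 ± 6.04 CPM. Without ThrbCRM1 A fewer of the 17 were called, as of all genes tested. RACK1, a protein of the small subunit with no RPS symbol, stood at 1191 ± 22.1 and 1295 ± 48.8 CPM and did not pass (log2 fold change -0.12, edgeR adjusted p = 0.180).

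Regulators of growth were more often higher than lower in ThrbCRM1. The 39 genes tested included genes of the MYC network, the mTOR pathway and the stress kinases of translation. Of the 39 genes 17 rose (43.6%) and 2 fell, with a median of 0.14. MYCL had 58.5 and 60.3 CPM in ThrbCRM1 and 29.6 and 27.4 CPM in UbiqC, and rose by 1.06 ± 0.09 on the log2 scale. RPS6KA2, a ribosomal S6 kinase of another family than RPS6KB1, rose from 11.4 ± 0.170 to 62.6 ± 11.4 CPM. The risen genes act in opposite ways in these pathways. MYC, a known activator of ribosomal protein genes, rose from 45.9 ± 3.24 to 61.2 ± 3.92 CPM and MYCN from 155 ± 2.43 to 248 ± 19.4 CPM. Genes of MYC antagonists were also called higher, with log2 fold changes of 0.55 for MXI1, 0.51 for MXD4, 0.35 for MNT and 0.34 for MXD1, as was DDIT4, an inhibitor of mTOR, at 0.72. Of these, MNT kept its call in 1 and MXD1 in 0 of the 4 fits with a library left out. The 2 that fell were RPS6KA3 (log2 fold change -0.88) and EIF4EBP1, a target of mTOR that holds back the cap-binding factor (-0.60). MYC and RPS6KA3 each kept their call in 3 of 4 fits with a library left out. MYCL and RPS6KA2 were named for their p, the smallest of the list, and the other genes of this paragraph with their values known. MTOR stood at 77.2 ± 3.72 and 76.5 ± 7.76 CPM and RPS6KB1, the main S6 kinase, at 121 ± 3.57 and 115 ± 8.31 CPM, and neither passed (edgeR adjusted p = 0.967 and 0.562). Without ThrbCRM1 A fewer of these 39 genes were called, as of all genes tested.

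**Figure D5:**
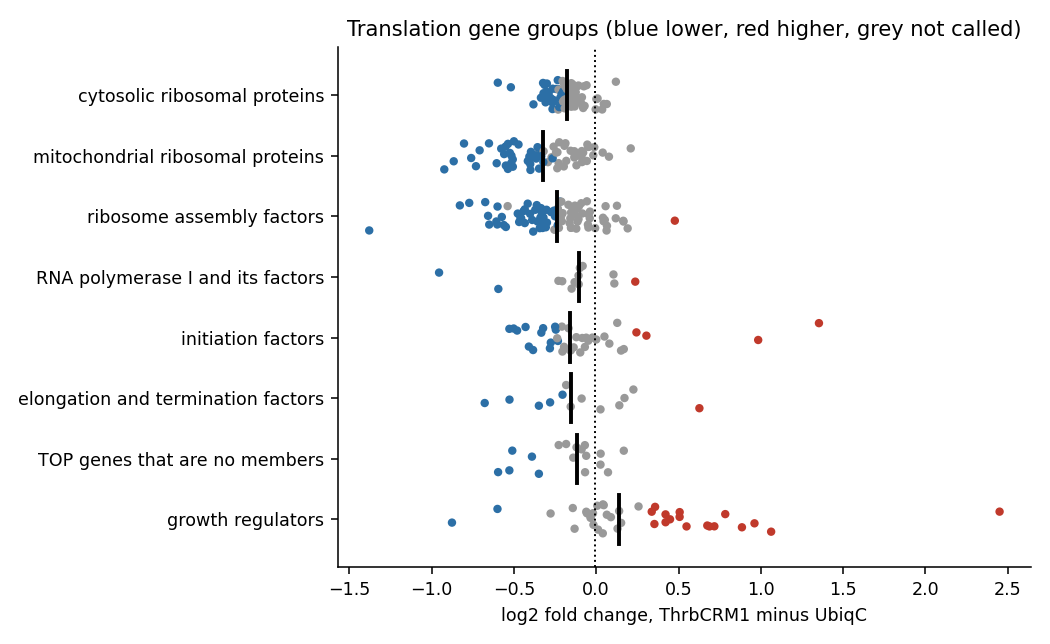
Log2 fold change (ThrbCRM1 minus UbiqC) of each tested gene in 8 groups of translation genes (RPL3L left out), with blue for genes called lower, red for genes called higher and grey for the rest, black bars at the medians and a dotted line at the median of all genes tested. The medians run from -0.33 for the mitochondrial ribosomal proteins to 0.14 for the growth regulators. The quartiles lie closest together for the cytosolic ribosomal proteins (-0.25 and -0.13) and, almost as close, the RNA polymerase I genes (-0.21 and -0.08).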

How the data were processed

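The deposited estimated counts (expected counts) were made by the authors with kallisto, as was TPM, per the submitters' processing notes, which also name sleuth and galGal5. Versions are not stated in the sources used here. Transcript lengths, other values in the deposited tables, are in bases. The authors' deposited sleuth results hold p-values, q-values and effects in natural log units. Gene names came from the authors' deposited transcript table, whose signal equals TPM times 1 factor per library (0.967 to 1.035), and 3 per-sample columns of it that name no library were not used. Fractions of reads per class came from the authors' deposited read-class sheet.

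Expected counts were summed by gene, rounded and tested with edgeR 4.0.16 (R 4.3.3, filterByExpr minimum count 10, TMM factors between 0.988 and 1.007, quasi-likelihood F test, Benjamini-Hochberg at 0.05, 2 residual degrees of freedom). The reporters were left out. Only the edgeR test on gene counts was tried on simulated data, which gave every gene the same assumed variability. Alternatives used limma 3.58.1 and DESeq2 1.42.0. No label says whether A and B were separate cultures, so the p-values cover the spread among these libraries only, and that spread may be technical. It exceeded counting noise, with chi-square over its degrees of freedom at 8.22 in ThrbCRM1 and 9.83 in UbiqC.

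The members and lists were chosen with earlier results of these data known. Genes described in full are the 8 largest falls and rises past the test at a mean of at least 10 CPM, the 5 highest and 5 lowest in TPM, paralogues with their partners, 9 genes in every case and the 2 smallest p in each list. A few of these genes are not reported here. Start site sequences were not analysed here.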

Additional observations from a re-analysis of the deposited data

How the results depend on the processing

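The 0 calls of a rise and the negative median of the ribosomal protein genes held in all 14 alternatives. The median lay between -0.18 and -0.12 across settings other than leaving out a library, and between -0.23 and -0.12 with a library left out, while that of all genes tested moved by less than 0.1. The count of 27 calls, all lower, was 10 when limma was run on unfiltered log2(TPM + 1) and ranged from 2 to 38 with a library left out. In that unfiltered limma fit 16.3% of all genes were lower, a larger share than of the members. The members' share was also the smaller with ThrbCRM1 A, ThrbCRM1 B or UbiqC A left out, and the larger without UbiqC B. With the replicate letter as a block the count of member calls was 41, against 25.9% of all genes lower. All 27 were among the 41, and 14 were added, RPLP0, RPL5, RPL24, RPL37A and RPL39 among these. With this block 0 transcripts were called, those of RPS24 included. The libraries share only a letter: their A minus B differences correlated at 0.167 between groups over all genes tested and at 0.821 over the members, and 2 pairs do not show that the letters pair them. Leaving out RPS19BP1 and the paralogues gave 26. Calls over all genes, 6839 with all libraries, ranged from 3846 to 6189 with a library left out. The share of counts, -0.20 as a log2 ratio, was -0.10 for the share of gene TPM, and lay between -0.26 and -0.15 with a library left out. Calls with a library left out ranged from 13 to 40 for mitochondrial ribosomal proteins, 12 to 40 for assembly factors, 1 to 2 for RNA polymerase I, 7 to 12 for initiation, 2 to 5 for elongation, 3 to 7 for TOP genes and 12 to 19 for growth regulators. Assembly factor calls (46) were 30 with limma on log2(TPM + 1), where 6340 of 14707 genes tested were called in either direction. They were 29 on log2(TPM + 0.1), with 6208 of 14707 genes called, and 26 without a filter, with 6413 of 18292. TOP gene calls (5) were 8 with the replicate block, with 8376 of 16771 genes called. Fewer samples give fewer residual degrees of freedom. Otherwise the cause was not tested. The start site sequences planned were not analysed here.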
